A study of Mus musculus with 4 samples.

Results

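Nuclear copies of mitochondrial DNA were examined through 10 annotated genes, Gm10222, Gm28438, Gm29216, Gm13339, Gm13340, Gm13341, Gm4076, Gm11407, Gm11410 and Gm20594, which were picked by name from the 16472 genes of the expression table. Each was compared, library by library, with its source gene, the mitochondrially encoded gene that it resembles over the longest stretch. RNA of skeletal muscle of wild-type (WT) mice had been sequenced in 4 libraries, 2 of isolated mitochondria and 2 labelled as tissue minus mitochondria, to find nuclear-encoded long non-coding RNAs in mitochondria. The latter group carries the word total in its titles, and a legend of the study describes it as lysate of total muscle, against the label of the treatment. It is called remaining tissue here, and whether values are against depleted or whole muscle is not settled. No treatment beyond the fractionation is given in the labels, and sex and age of these mice are not given in the sources used here. The methods name 129SV mice for backcrossing the mutant lines of the study and their WT relatives, without saying whether the mice sequenced here came from them. The labels do not say whether the 2 libraries of a group came from separate animals, so p-values measure the spread between these libraries, which may be technical.

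Over evolution, pieces of mitochondrial DNA have been inserted into the chromosomes of the nucleus, where they are no longer part of the mitochondrial genome and collect substitutions of their own. Old copies therefore carry many differences and recent ones few or none. In short-read RNA sequencing, a read can be placed on such a copy rather than on the mitochondrial genome only by the letters in which they differ.

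The level of the 10 copies relative to their source genes differed widely and rose with their identity, though not strictly. Per nucleotide, Gm10222 and Gm28438 were counted at about the level of their source genes, Gm29216 at 69.49% to 75.91%, the chromosome 2 copies, with identities of 96.67% to 97.62%, at 10.22% to 23.4%, and the 4 diverged copies at no more than 0.527%. All 10 were higher in isolated mitochondria than in remaining tissue under the deposited scaling, as were their source genes. Relative to the source gene, only Gm11410 and Gm20594 passed the test of a change between the fractions, both lower in isolated mitochondria, and neither passed it when a library of remaining tissue was left out.

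The recent copies lie in a single block on chromosome 1 of GRCm38 (chr1:24611535-24616197, minus strand) that follows positions 6381 to 11042 of the mitochondrial genome with an offset that varies by 1 bp over 4663 bp. Of its 7 annotated copies, Gm10222 (chr1:24612407-24612700), Gm28438 (chr1:24612775-24613119) and Gm29216 (chr1:24615706-24616197) are described in detail. Their source genes are mt-Nd4l and mt-Nd3, which encode subunits of respiratory complex I, and mt-Co1, which encodes the catalytic subunit of cytochrome c oxidase. All 294 letters of Gm10222 were identical to the mitochondrial genome, and none of its 220 windows of 75 nt, the read length, was without an identical match there. The first 75 letters of both are shown because they cannot be distinguished, at chrM:9877-9951 and at chr1:24612626-24612700 on the minus strand.

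mt-Nd4l: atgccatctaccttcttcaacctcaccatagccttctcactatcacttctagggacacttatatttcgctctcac
Gm10222: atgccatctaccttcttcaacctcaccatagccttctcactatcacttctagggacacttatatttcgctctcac

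Gm28438 differed from mt-Nd3 in 1 of 345 letters, the substitution T3C, counted from 1 at the 5′ end of the source gene with the mitochondrial letter first. Capitals mark it in the sequences below, from chrM:9459-9533 and chr1:24613045-24613119 on the minus strand. Of 271 windows, 3 contained the differing letter.

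mt-Nd3: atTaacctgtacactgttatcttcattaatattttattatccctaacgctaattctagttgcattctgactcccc
Gm28438: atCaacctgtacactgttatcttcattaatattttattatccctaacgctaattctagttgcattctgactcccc

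Gm29216 corresponds to the last 492 letters of mt-Co1, which is 1545 nt long. Its 6 differences (T1056A, C1057T, A1059G, A1060G, C1062A and A1066T) all lie within its first 13 letters, and the remaining 479 letters were identical. Copies were aligned over their whole annotated length, and this end is the edge of the block. Whether its first letters belong to the insertion was not tested. The 5′ ends are shown with these letters in capitals, from chrM:6381-6455 and chr1:24616123-24616197 on the minus strand, and 13 of 418 windows (3.11%) contained at least 1 of them.

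mt-Co1: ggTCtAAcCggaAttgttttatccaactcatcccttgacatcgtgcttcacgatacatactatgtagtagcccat
Gm29216: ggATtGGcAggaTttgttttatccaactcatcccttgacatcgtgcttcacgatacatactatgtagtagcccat

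The chromosome 2 copies form a second block (chr2:22587291-22590533), which lies on the minus strand in an intron of Myo3a, a gene of the plus strand, and matches mitochondrial positions 4442 to 7696. Gm13340 (chr2:22588103-22589647) covers the whole of mt-Co1 with 37 substitutions, of which 33 are transitions, and an identity of 97.61%. Gm13341 (chr2:22587291-22587962) matches mt-Co2, another cytochrome c oxidase subunit, at 97.62% with 16 substitutions and 12 missing letters. Gm13339 (chr2:22590024-22590533) matches 49.13% of mt-Nd2, a complex I subunit, at 96.67% with 17 substitutions. The share of windows with no identical match in mitochondrial transcripts was 85.04% for Gm13340, 76.92% for Gm13341 and 87.39% for Gm13339. A stretch of Gm13340 in which 5 letters differ, more densely than over the whole copy, is shown with them in capitals, from chrM:5787-5861 and chr2:22589114-22589188 on the minus strand.

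mt-Co1: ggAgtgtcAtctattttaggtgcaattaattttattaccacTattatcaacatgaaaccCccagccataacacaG
Gm13340: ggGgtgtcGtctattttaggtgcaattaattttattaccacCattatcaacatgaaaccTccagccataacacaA

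The 4 diverged copies come from 3 places. Gm11407 (chr4:80002331-80003388) and Gm11410 (chr4:80003989-80005131) lie on the plus strand of chromosome 4 at either side of Gm11408, a further copy, and these 3 follow mitochondrial positions 12489 to 15287 with an offset that varies by 2 bp. Gm11407 matches mt-Nd5, a complex I subunit, at 92.34%, and Gm11410 matches mt-Cytb, the cytochrome b of complex III, at 92.83% with 82 substitutions. Gm4076 (chr13:85126550-85127514, minus strand) also matches mt-Nd5, at 94.72%. Gm20594 (chr6:79817916-79818364, plus strand) matches 28% of mt-Rnr2, the large mitochondrial ribosomal RNA, at 87.97%, and is the only member annotated as protein-coding rather than as a pseudogene. In Gm11410 and Gm20594 every 75-nt window held a difference from the mitochondrial transcripts, against 97.87% in Gm11407 and 99.1% in Gm4076. The stretches of Gm11410 (chrM:14535-14609 and chr4:80004379-80004453, with 9 differing letters in capitals) and of Gm20594 (chrM:1748-1822 and chr6:79817926-79818000, with 12) are given because these copies were the ones that changed relative to their source.

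mt-Cytb: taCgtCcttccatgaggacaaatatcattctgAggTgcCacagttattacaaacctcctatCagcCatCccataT
Gm11410: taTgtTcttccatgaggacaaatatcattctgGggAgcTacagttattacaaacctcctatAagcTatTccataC
mt-Rnr2: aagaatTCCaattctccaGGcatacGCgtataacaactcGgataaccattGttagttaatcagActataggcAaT
Gm20594: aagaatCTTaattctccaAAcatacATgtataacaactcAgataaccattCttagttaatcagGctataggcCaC

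Gm11407 and Gm4076 overlap over 921 letters of mt-Nd5, in which they were identical to each other at 95.33%. Of the substitutions against mt-Nd5 in this stretch, 69 in Gm11407 and 48 in Gm4076, 36 were shared. The 3 sequences are aligned at chrM:12637-12711, chr4:80002479-80002553 and chr13:85127250-85127324 (minus strand). Capitals in the mt-Nd5 line mark letters that differ in at least 1 copy, and capitals in a copy mark its own differences from mt-Nd5.

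mt-Nd5: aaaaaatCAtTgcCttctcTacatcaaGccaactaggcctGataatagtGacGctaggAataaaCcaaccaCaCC
Gm11407: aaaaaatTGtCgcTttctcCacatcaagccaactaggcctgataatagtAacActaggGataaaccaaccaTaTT
Gm4076: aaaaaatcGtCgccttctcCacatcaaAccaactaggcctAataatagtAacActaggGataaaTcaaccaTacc

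**Figure D1:**
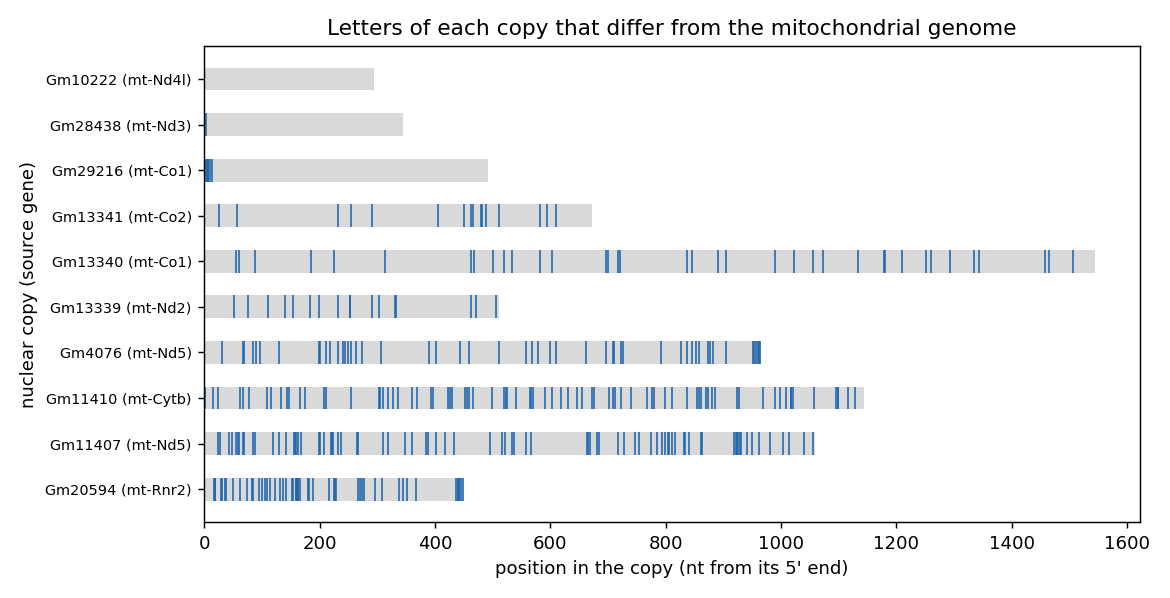
Each grey bar is 1 of the 10 nuclear copies drawn to its length in nt, and each blue line is a letter that differs from the mitochondrial genome (letters missing from a copy are not drawn). Gm10222 has no difference, those of Gm28438 and Gm29216 lie at the 5′ end, and the other 7 copies carry them along their length.

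Depth was estimated at 15699723 and 15297734 assigned reads for remaining tissue and at 42758846 and 35310363 for isolated mitochondria. The figures for remaining tissue use 1 factor for both libraries, so a difference in depth between them was not recovered. The 37 mitochondrially encoded genes took 22.31% and 20.53% of counts in remaining tissue and 95.28% and 94.12% in isolated mitochondria, in which most nuclear genes rested on few reads. The 10 copies took 0.525% and 0.504%, and 1.76% and 2.08%, respectively. The 10 markers of skeletal muscle fibres, all of them detected in every library, summed to 11.9% and 12.7% of reads in remaining tissue and to 0.0144% and 0.0300% in isolated mitochondria. The summed markers of fibroblasts took 0.0511% and 0.0579% in the former and 0.00195% and 0.00799% in the latter. Those of red blood cells, endothelium and fat cells were each at most 0.0169% and at most 6.23e-05%, respectively. Under the deposited scaling, however, the fibroblast markers Col1a1, Col3a1 and Dcn were higher in isolated mitochondria. Fragmentation time was set separately for mitochondrial RNA and cannot be told apart from the groups.

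The values below are normalized counts, that is, gene counts that the authors divided by a size factor per library, given for remaining tissue replicates 1 and 2 and then for isolated mitochondria replicates 1 and 2. Gm10222 had 1260 and 1194, and 883541 and 540632 normalized counts, and its source mt-Nd4l had 1230 and 1178, and 884772 and 536752. The copy was thus counted at 102.4% and 101.4%, and at 99.86% and 100.7% of the source. Among reads of the pair, the share of the copy was 49.97% (95% Wilson interval 49.74 to 50.19) in isolated mitochondria replicate 1 and 50.18% (49.97 to 50.39) in replicate 2, and both intervals include equal shares. These shares rested on 195460 and 212989 reads. The methods of the study state that reads aligning to several places were left out, although no 75-nt window of Gm10222 is distinct from mitochondrial transcripts. How such reads came to be counted was not tested, and reads that run past the ends of the gene were not examined.

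Gm28438 had 407 and 412, and 217180 and 127318 normalized counts, and mt-Nd3 had 400 and 426, and 214854 and 124586. Relative to mt-Nd3, the copy lay at 99.2% ± 3.56 (SD, n = 2) in remaining tissue and, in the mitochondrial libraries, at 101.6% ± 0.785 (SD, n = 2). The ranges of the 2 groups overlapped.

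Gm29216 had 5654 and 5228, and 3436048 and 1848809 normalized counts, the highest values of the 10 copies in every library. Its level was 23.1% ± 0.969 (SD, n = 2) of mt-Co1 in remaining tissue and 23.1% ± 1.44 (SD, n = 2) in the mitochondrial libraries. Per nucleotide of each gene, it reached 70.48% and 74.78%, and 75.91% and 69.49% of mt-Co1. It therefore stayed below its source per nucleotide in all 4 libraries, unlike Gm10222. However, Gm29216 covers 31.84% of its source and Gm10222 covers 98.99%. Counts along the source genes were not examined, so the level of the copy against its matching stretch alone is not known.

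**Figure D2:**
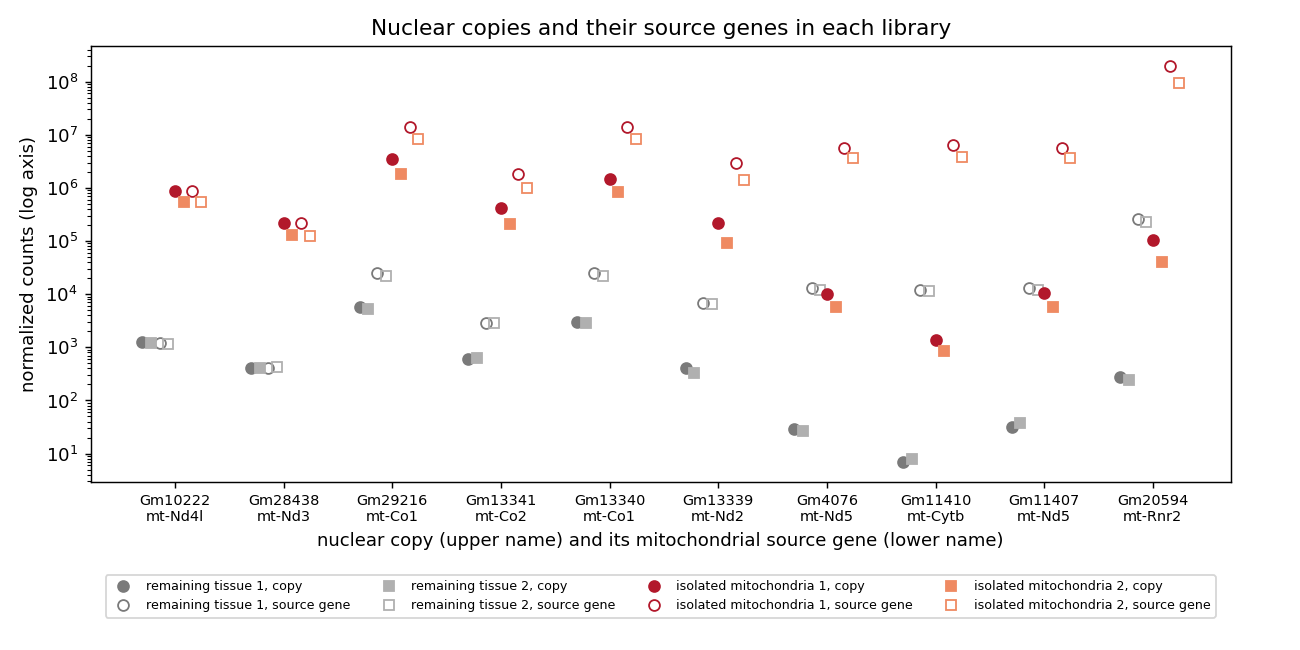
Normalized counts (log axis) of each copy (filled symbols) and its mitochondrial source gene (open symbols) in the 2 libraries of remaining tissue (grey) and the 2 of isolated mitochondria (red and orange), under the deposited scaling. Gm10222 and Gm28438 coincide with their source genes, and Gm20594 lies farthest below its source in isolated mitochondria apart from Gm11410.

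On chromosome 2, Gm13340 had 3026 and 2841, and 1485032 and 853766 normalized counts. It lay at 12.5% ± 0.657 (SD, n = 2) of mt-Co1 in remaining tissue and at 10.3% ± 0.161 (SD, n = 2) in the mitochondrial libraries, and the groups did not overlap. Gm13341 had 591 and 627, and 420252 and 207702, which was 21.4% ± 0.987 and 21.9% ± 1.55 of mt-Co2. Gm13339 had 415 and 329, and 218139 and 92815, which was 5.55% ± 0.643 and 6.93% ± 0.487 of mt-Nd2, with no overlap. Gm13339 is shorter than its source, and per nucleotide it lay at 12.21% and 10.36%, and at 14.81% and 13.4%. Thus on the scale per nucleotide Gm13340 and Gm13339 were near each other in remaining tissue. In isolated mitochondria Gm13340, at 10.45% and 10.22%, was below Gm13339. Gm13341, at 21.12% and 22.54%, and 23.4% and 21.16%, was above both in each library. Gm13339 covers only 49.13% of its source, and counts along mt-Nd2 were not examined.

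The diverged copies were counted far less. Gm11407 had 31 and 37, and 10569 and 5853 normalized counts, or 0.234% and 0.306%, and 0.189% and 0.162% of mt-Nd5. Gm4076 had 29 and 27, and 9899 and 5828, or 0.219% and 0.223%, and 0.177% and 0.162% of the same gene. Both copies of mt-Nd5 had a lower percentage in isolated mitochondria, without overlap between the groups. They lay close to each other except in remaining tissue replicate 2, where Gm11407 was higher. With 2 libraries per group, a lack of overlap, here or in the chromosome 2 copies, does not by itself show a change. It was also found for Gm10222, whose log2 change relative to its source was -0.02. How often it occurs among all genes was not examined.

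Gm11410 had the lowest values, 7 and 8, and 1403 and 865 normalized counts, the latter from 155 and 171 reads, and it passed the filter on low values only through isolated mitochondria. Its share of mt-Cytb was 0.0581% and 0.0688% in remaining tissue, and 0.0221% and 0.0227% in isolated mitochondria. Gm20594 had 273 and 246, and 106468 and 39911 normalized counts. Its percentage of mt-Rnr2 was 0.104% and 0.108%, and 0.0536% and 0.0433%. In both copies the percentage was lower in each library of isolated mitochondria than in either of remaining tissue.

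**Figure D3:**
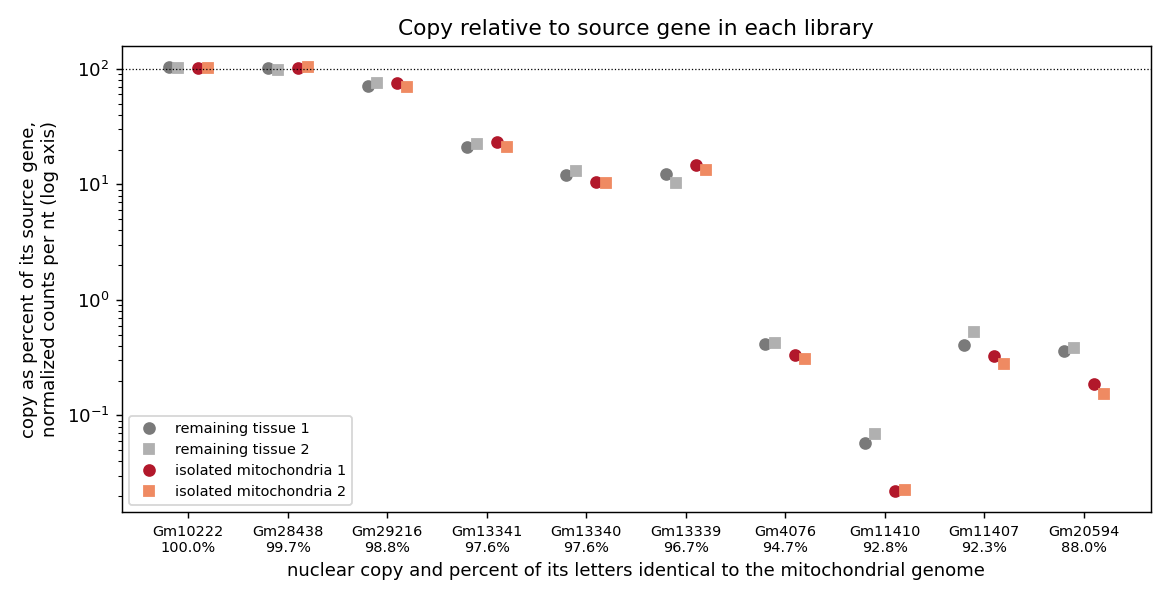
Level of each copy as a percent of its source gene per nucleotide (log axis) in each library, with copies ordered by identity to the mitochondrial genome, which stands under each name. The dotted line marks 100%, at which Gm10222 and Gm28438 lie, and none of the 4 diverged copies lies above 0.527%.

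Identity and level per nucleotide relative to the source had a Spearman coefficient of 0.939 across the 10 copies in remaining tissue and the same in isolated mitochondria, given as a description since copies of one block share their insertion and Gm29216 and Gm13340, like Gm11407 and Gm4076, share a source gene. Several copies cover only a part of their source, and counts along the source genes were not examined. Outside the 10, Gm28439 of the chromosome 1 block has no difference from its source, mt-Nd4, over the 63.57% that it covers. Per nucleotide it lay at 49.5% and 47.27%, and at 43.43% and 44.85%, below Gm29216 in each library. Among the 10 copies, too, the order was not strict. Gm20594, at 87.97% identity, had 0.365% and 0.380%, and 0.189% and 0.153% of its source per nucleotide, whereas Gm11410, at 92.83%, had 0.0582% and 0.0688%, and 0.0221% and 0.0227%, and was the lowest copy in all 4 libraries.

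Between the fractions, all 10 copies passed the test as higher in isolated mitochondria (limma on log2 normalized counts, adjusted p from 0.00269 to 0.00780). Gm11410, at 7 and 8 in remaining tissue, reached the filter only through isolated mitochondria, so its pass in this direction is tied to the filter. In the whole table, 7.32% of the 6916 genes tested passed in this direction. The log2 fold change was from 7.02 (Gm11410, SE 0.33) to 9.14 (Gm10222, SE 0.31), with a median of 8.58 over the copies against -0.44 over all genes tested. The 13 mitochondrial mRNAs had a median of 8.78. This direction depends on the scaling. When libraries were scaled to the total of all genes, 6 of the 10 passed as higher, with Gm20594, Gm11407, Gm4076 and Gm11410 no longer passing, and when scaled to the total of mitochondrially encoded genes 0 passed, 0 at an unadjusted p under 0.05, while Gm11410 passed as lower (log2 -1.82, adjusted p = 0.00696).

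The nearest nuclear genes of the table did not share these values, although they lay 16112 to 3320132 bp from the 5 loci of the copies. These 10 genes, 1 on either side of each locus, had 1 to 53 normalized counts in remaining tissue and 0 to 63 in isolated mitochondria, the latter from at most 7 reads per gene. Only Lmbrd1, next to the chromosome 1 block, was high enough to be tested, with a log2 difference between the fractions of -1.38 (SE 1.23) and an adjusted p of 0.451 by limma. Myo3a, which contains the chromosome 2 block, was not analysed here.

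The percentages of the source gene do not depend on the scaling of the libraries. The test used log2 values with a pseudocount, a constant added to each normalized count. For low values, such as those of Gm11410, its result therefore still depends in part on the scaling. For each source gene, its log2 value was subtracted from that of every gene in each library and the fit was repeated over all 6916 genes. Of the 10 copies, 2 passed as lower in isolated mitochondria relative to their source and 0 as higher (0 at an unadjusted p under 0.05, limma). Nearly every gene of the table fell relative to a mitochondrial gene, 98.4% relative to mt-Co1 and also to mt-Co2, 98.2% to mt-Cytb, 97.8% to mt-Nd2, 98.0% to mt-Nd3, 98.8% to mt-Nd4l, 97.9% to mt-Nd5 and 98.6% to mt-Rnr2. With so many calls, adjustment left p-values nearly as they were.

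The copies that passed were both diverged. Gm11410 was lower relative to mt-Cytb by 3.20-fold (log2 -1.68, SE 0.35, 95% interval -2.63 to -0.73, adjusted p = 0.00775 by limma), and Gm20594 was lower relative to mt-Rnr2 by 2.20-fold (log2 -1.14, SE 0.40, interval -2.16 to -0.12, adjusted p = 0.0353). Values of 7 and 8 are rounded, and within this rounding the percentage of Gm11410 in remaining tissue was from 0.0540% to 0.0623% in replicate 1, which is above both values of isolated mitochondria. The size of its change depends on the pseudocount, with log2 -1.59 at 0.5 and -2.71 at 10, and the percentages, which use none, had means of 0.0635% and 0.0224%. Without remaining tissue replicate 1 the adjusted p was 0.182 for Gm11410 and 0.324 for Gm20594, and without replicate 2 it was 0.243 and 0.349, with log2 changes of -1.79 and -1.17, and of -1.57 and -1.11.

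The other 2 diverged copies had changes in the same direction that did not pass, -0.65 for Gm11407 (interval -1.52 to 0.22, adjusted p = 0.110 by limma) and -0.44 for Gm4076 (interval -1.23 to 0.36, adjusted p = 0.212). When a library of isolated mitochondria was left out, the direction was kept. Gm11407 was at -0.76 without replicate 1 and at -0.54 without replicate 2, and Gm4076 was at -0.50 and -0.37. The median over the 4 diverged copies was -0.90 on the log2 scale.

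For the recent copies the change relative to the source was near 0, at -0.02 for Gm10222 (interval -0.38 to 0.33), 0.04 for Gm28438 (-0.57 to 0.64) and 0.00 for Gm29216 (-0.28 to 0.28). The chromosome 2 copies were at 0.03 for Gm13341 (-0.49 to 0.54), -0.27 for Gm13340 (-0.60 to 0.05, adjusted p = 0.0849) and 0.32 for Gm13339 (-0.52 to 1.16, adjusted p = 0.365). Without isolated mitochondria replicate 2, Gm13339 was at 0.39. The intervals do not exclude changes relative to the source of up to 1.21-fold for Gm29216 and up to 2.23-fold for Gm13339.

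**Figure D4:**
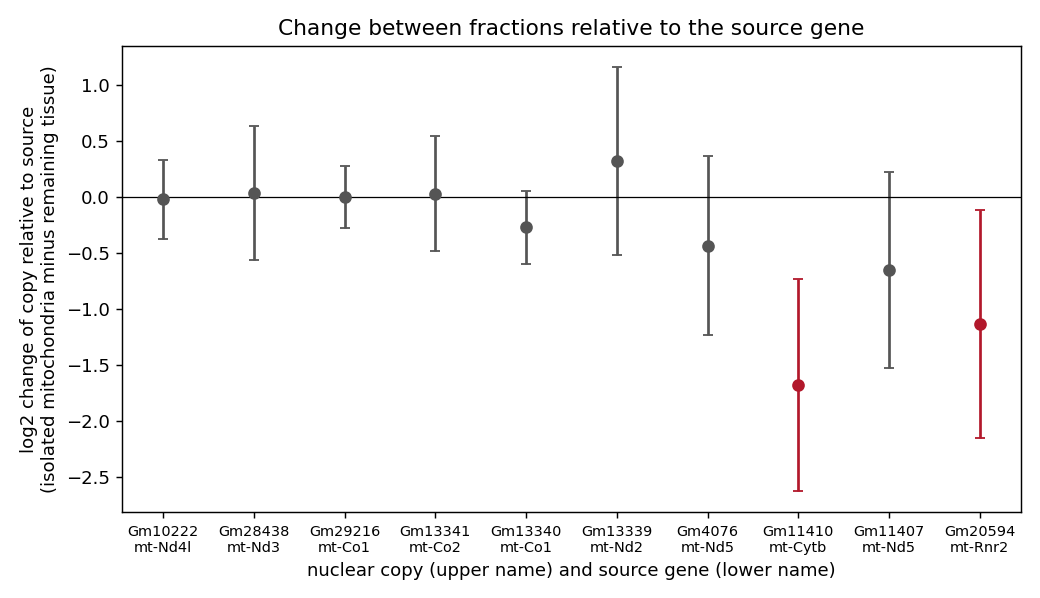
Log2 change of each copy relative to its source gene, isolated mitochondria minus remaining tissue, with 95% intervals from limma (n = 2 libraries each). Copies that passed the test are red: Gm11410 at -1.68 and Gm20594 at -1.14, while the intervals of the other 8 include 0.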

How the data were processed

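RNA of skeletal muscle was sequenced in 2 libraries of isolated mitochondria and 2 of remaining tissue. According to the methods, single-end reads of 75 nt were trimmed with Trimmomatic 0.39, aligned with STAR 2.7.10a to GRCm38 (mm10) with a raised limit on mismatches, and counted over exons with featureCounts 2.0.2, where reads in more than 1 gene or at more than 1 place were dropped, and groups were compared with DESeq2 1.30.1 (versions from the submitters' processing notes). Whether counting used strand is not given in the sources used here. The deposited values are a signal, gene counts that the authors divided by size factors and rounded.

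Low values (under 2000) were multiples of a step of 9.047 (100% of 10508 values within 0.1 steps) and of 5.058 (99.8% of 11660) in isolated mitochondria replicates 1 and 2, which gave back whole reads. For remaining tissue, about 7.05 reads per normalized count were estimated from the 8993 genes above 0 in all libraries, as 1 factor taken to be the same in both libraries. Wilson intervals cover counting error only, since reads are not independent molecules.

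The test was run with limma 3.58.1 in R 4.3.3 on log2(normalized count + 1) of the 6916 of 16472 genes whose mean over all libraries was 20 or more (eBayes with trend, two-sided, Benjamini-Hochberg over the genes tested, threshold 0.05). Percentages of the source are given as mean and SD, and their change was tested with limma as a log2 difference, since an exact permutation test of 2 against 2 cannot give a p below 0.333. The fit between the fractions was tested on simulated data, and the fits relative to a source gene were not. edgeR 4.0.16 and DESeq2 1.42.0 were run on the recovered reads as alternatives, on which each called 10 of the 10 copies.

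Sequences were GENCODE M21 transcripts on GRCm38. BLAST 2.17.0 gave the source gene (stretches of 30 nt or more at 85% identity or more, with E-values of 0.001 or less), and nuclear copies were genes covered by at least 50%, of which the table held 17. Biopython 1.88 aligned each copy end to end with the mitochondrial genome. The mitochondrial control region and the flanks of the copies were not used here. Named genes were the 10 copies, their source genes, the other 7 copies and the neighbours of the insertions. The members, lists and tests were chosen with earlier results of these data known.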

Additional observations from a re-analysis of the deposited data

How the results depend on the processing

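The 10 copies were counted as higher under 14 of 16 alternatives. Exceptions were scaling to the total of all genes (6 higher) and to the total of mitochondrially encoded genes (0 higher and 1 lower), under which log2 fold changes turned to -0.46 for Gm13340, -1.07 for Gm20594, -0.46 for Gm13339, -1.19 for Gm11407, -0.38 for Gm28438, -0.12 for Gm13341, -0.96 for Gm4076, -1.82 for Gm11410 and -0.19 for Gm29216. Among all genes tested, 506 were higher and 643 lower, 38 and 6694 with the total of all genes as the reference, 114 and 5642 with that of nuclear-encoded genes, 4 and 6802 with that of mitochondrially encoded genes, and 619 and 435 with the upper quartile. Without a filter they were 665 and 3026, with a mean of at least 5 they were 283 and 399, and with eBayes without trend 438 and 374. edgeR called 1103 and 871 and DESeq2 1404 and 877. Without isolated mitochondria replicates 1 and 2 the counts were 1724 and 2774, and 1643 and 3198, and without those of remaining tissue 296 and 176, and 313 and 188.

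Relative to the source gene, 2 copies had changed, 1 with eBayes without trend (Gm20594 lost), and from 0 to 5 without 1 library. The lone library is then assumed to vary like the other group. Shares of all genes that passed without 1 library are not given here, so these counts do not describe the copies in particular. The counts were 4 and 5 without isolated mitochondria replicates 1 and 2, and 0 (0 at an unadjusted p under 0.05, limma) without either library of remaining tissue. Signs turned where values were near 0, with ranges without 1 library of -0.0016 to 0.0715 for Gm28438, -0.0461 to 0.0988 for Gm13341 and -0.0633 to 0.0641 for Gm29216, which was -0.0014 with a pseudocount of 10. With the total of the 13 mitochondrial mRNAs as the reference, Gm13339 was at -0.15, Gm28438 at -0.069 and Gm10222 at 0.41 (adjusted p = 0.0419 by limma), and Gm20594 no longer passed (-0.76, adjusted p = 0.0688). All 20 mean percentages of copies moved beyond 1 SD under this reference, which follows from the change of denominator alone. A pseudocount of 10 added Gm11407 (-0.98, adjusted p = 0.0364 by limma). The cause of the changes in log2 values and in calls was not tested.

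The replicate numbers are treated as names, since deviations of same-numbered libraries had a correlation of 0.141 over 2 pairs only. With the replicate block, 10 copies were higher, 0 lower and 2 changed relative to the source, and among all genes 630 were higher and 1144 lower. In remaining tissue, rounding hides up to about 7.05 reads, which limits Gm11410 most. The annotated copies are those of the reference genome, and copies of the mice used were not examined.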

Other observations

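The table held 7 other nuclear copies. In the chromosome 1 block, Gm28661, Gm10925, Gm28437 and Gm28439 had no difference from mitochondrial DNA over 681, 678, 783 and 876 letters. Gm28437 was counted at 100.6% ± 0.288 of mt-Co3 in remaining tissue and at 100.7% ± 0.156 in isolated mitochondria, and Gm28661 at 102.9% ± 1.13 and 103.2% ± 0.531 of mt-Co2 (SD, n = 2 each). Gm10925 lay above its source, mt-Atp6, a subunit of ATP synthase, at 107.6% ± 0.711 and 110.6% ± 1.68, and its share of the pair in isolated mitochondria replicate 1 was 52.78% (95% Wilson interval 52.69 to 52.87), which lies above equal shares. In the same library the intervals of Gm28661 (50.72 to 51.02) and Gm28437 (50.07 to 50.35) also lay above equal shares, while that of Gm28438 (49.82 to 50.72) included them. Gm28439, identical to 63.57% of mt-Nd4, was at 30.8% ± 1.00 and 28.1% ± 0.640. Per nucleotide it lay at 49.5% and 47.27%, and at 43.43% and 44.85%, below Gm29216 in each library although it has no difference from its source. Both copies cover only a part of their source, and counts along the source genes were not examined. Gm11408, on chromosome 4 between Gm11407 and Gm11410, was listed at 0 in each library of remaining tissue and had 461 and 293 normalized counts in isolated mitochondria, where mt-Nd6 had 110802 and 93138.

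Levels of several mitochondrial mRNAs change when the counts given to their copies are added. The sums take each read as counted only once, at the source or at a copy, which was not tested. A read counted at both would enter a sum more than once, so levels and ranks below hold only under this assumption. With the copies added, mt-Atp6 rose by 108.1% and 107.1% in remaining tissue and by 111.8% and 109.4% in isolated mitochondria, and mt-Co2 by 124.5% and 124.3%, and 126.5% and 123.6%. For mt-Co1 the addition was 34.47% and 36.78%, and 34.64% and 32.36%, and for mt-Cytb it was at most 0.0688%. As deposited, mt-Co1 was the highest of the 13 mitochondrial mRNAs per nucleotide in all 4 libraries, at 16.3 and 14.2 normalized counts per nt in remaining tissue against 12.6 and 10.6 for mt-Atp6. With the copies added, mt-Atp6 came first in all 4, at 26.2 and 21.8 against 21.9 and 19.4 for mt-Co1. The log2 fold changes between the fractions moved by at most 0.03 with the copies added, which was -0.03 for mt-Nd4.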
